A study of Mus musculus with 39 samples.

Results

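A set of 9 genes of the NRF2 antioxidant response was followed by name through all 39 libraries of the series. They were Nfe2l2, which encodes the transcription factor NRF2, and 8 of its known target genes, Hmox1, Nqo1, Srxn1, Txnrd1, Slc7a11, Gclc, Gclm and Gsr. Their rows were taken by gene symbol. All 9 were among the 30012 gene names of the count table, and all 9 were among the 14419 genes that held enough counts to be tested. Their counts ran from 17 to 1561 per library, and none was 0 in any library.

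NRF2 is held low in resting cells by the adaptor KEAP1, which presents it to a CUL3 ubiquitin ligase. When oxidants or electrophiles modify KEAP1, NRF2 escapes degradation, pairs with small MAF proteins and binds antioxidant response elements in its target genes, while BACH1 competes for the same elements. Its activity is therefore set largely at the level of protein, and in lung the pathway is known for protecting cells from inhaled oxidants.

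The series profiled cultured lung fibroblasts of wild-type C57BL/6 mice given C1q, a serum protein that starts the classical pathway of complement. The cells had been depleted of CD45, CD31, EpCAM, CD146 and Ter119 positive cells with magnetic beads, grown in serum and starved of it for 24 h before treatment. Doses were 1, 10 and 100 µg/ml, times were 2, 24, 48 and 72 h, and with the untreated cells of 0 h this made 13 groups of 3 libraries. Libraries were made from poly(A) RNA and read at transcript 5′ ends. The untreated cells were taken only at 0 h, so every comparison with them changes time in culture as well as C1q, and the contributions of C1q and of time cannot be told apart there. The comparisons between doses were made at equal time. No group received the C1q solvent alone, so C1q and anything else in its stock that rises with dose cannot be told apart. Whether the 3 libraries of a group stand for different cultures or mice is not stated, and each p-value therefore refers to library-to-library spread that may be technical. All comparisons with untreated cells share the same 3 untreated libraries.

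Promoter sequences were available for 6 of the 9 genes, as 8 windows from 250 bases before to 50 after an annotated start, from RefSeq on GRCm38.p6. They are shown because the core of the antioxidant response element can be read in them directly. The core TGACNNNGC, searched on both strands, lay in 1 window each of 4 genes, Nfe2l2, Srxn1, Gclm and Txnrd1. It lay in 12.4% of all 32851 promoter windows. Each match is printed 5′ to 3′ on the gene's strand with 10 bases on either side, and the capitals mark the core or its reverse complement.
Nfe2l2, chr2:75704885-75704913, minus strand: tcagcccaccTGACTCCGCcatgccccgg
Srxn1, chr2:152105542-152105570, plus strand: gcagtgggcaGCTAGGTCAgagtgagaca
Gclm, chr3:122245413-122245441, plus strand: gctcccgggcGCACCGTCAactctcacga
Txnrd1, chr10:82859104-82859132, plus strand: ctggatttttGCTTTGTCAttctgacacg
In Nfe2l2 the core reads on the gene's own strand and begins at position -240 from the start site. In the other three it reads on the opposite strand, and its capitals begin at -134 in Gclm, -92 in Txnrd1 and 29 in Srxn1. The Txnrd1 match is in 1 of its 3 windows. The windows of Nqo1 and Slc7a11 held no match to these letters, which says nothing of elements elsewhere. No binding was measured in the series, so a match describes the sequence only.

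Library totals ran from 1806106 to 3012518 counts. Levels are given as CPM, counts scaled to library size with TMM factors, and are compared between samples and not between genes. All 7 fibroblast markers checked, among them Col1a1, Col3a1 and Pdgfra, were counted in every library. Markers of other cell types were present too, although these cells had been depleted. The summed level of 7 epithelial markers, all of them counted in all 39 libraries, was 83.2 to 118 CPM at 72 h, against 475 to 555 CPM in untreated cells. That of 14 macrophage markers was 829 to 1334 CPM at 72 h, against 273 to 298 CPM in untreated cells. Lyz2 alone held most of their counts, 36966 over all 39 libraries, with Cd14 next at 2457, so this sum mainly follows Lyz2. Cd163 was counted in 16 libraries and Marco in 15. Among the epithelial markers Krt8 held the most counts, 7014 over all 39 libraries, with Krt18 next at 3784. Among 4 mural markers Kcnj8 held the most, 3690, with Mcam next at 1676. The 4 erythroid markers in the table summed to at most 2.72 CPM. In such mixed samples, fewer cells of a type and less RNA per cell cannot be told apart.

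**Figure D1:**
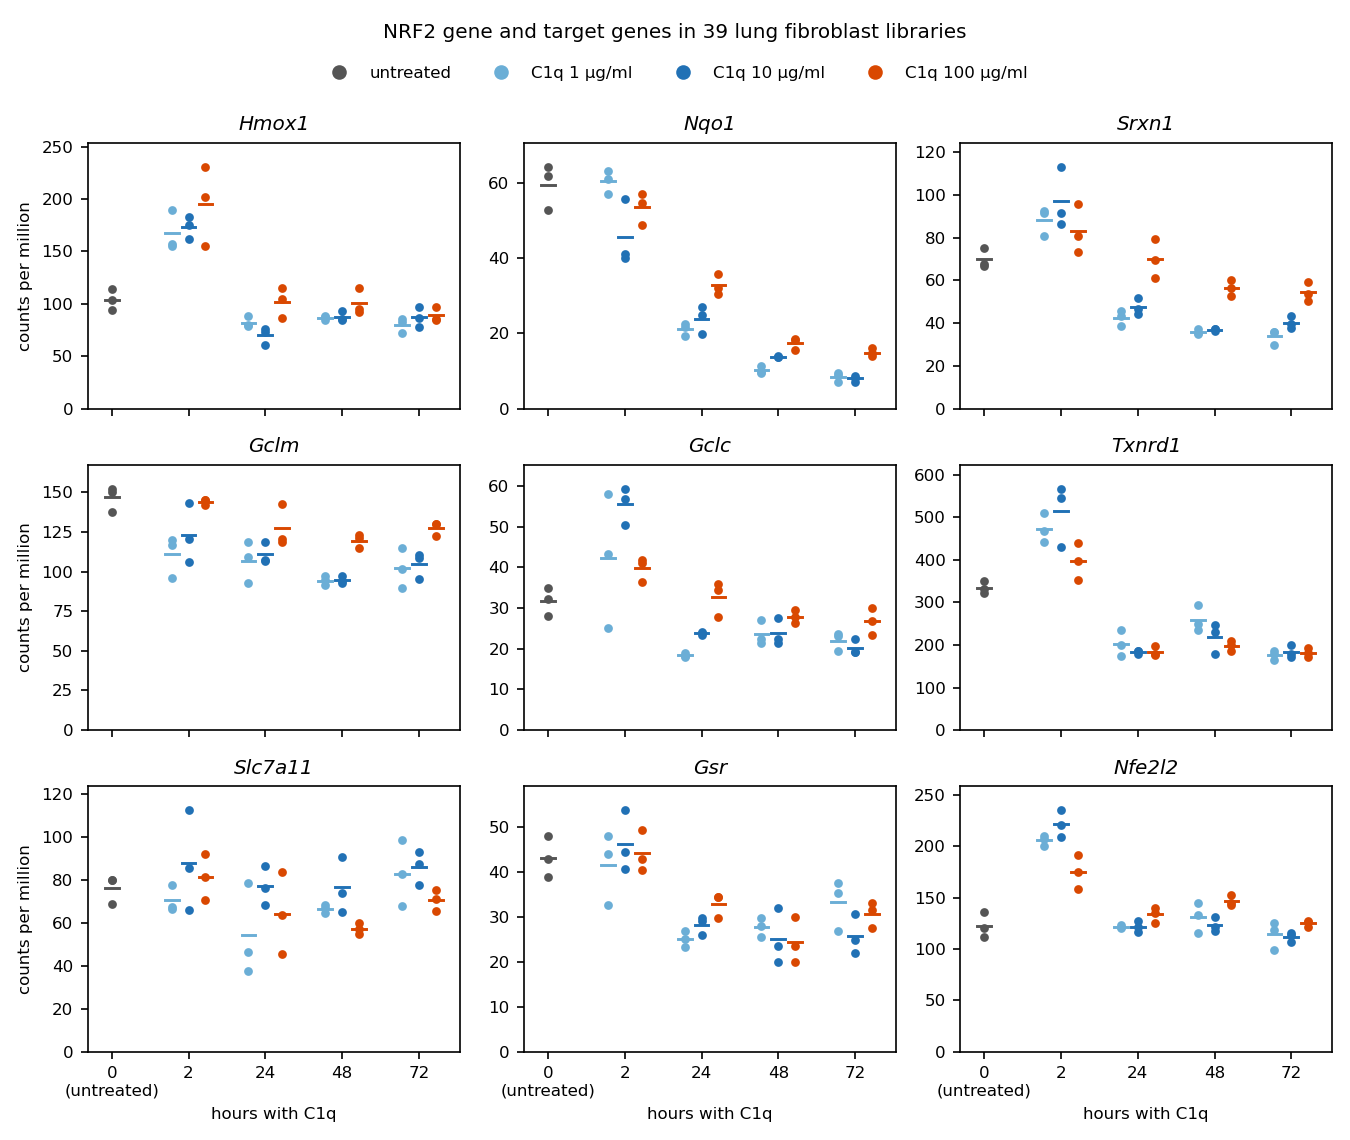
Level of each gene (CPM, y axis from 0) in each library by hours with C1q (x axis), with the untreated libraries at 0 h. Points are libraries, bars are the mean of 3, and colour gives the dose; Nqo1 lies at 7.03 to 15.97 CPM at 72 h, against 52.8 to 64.2 CPM in untreated cells, and the 100 µg/ml points of Srxn1 stand above those of the lower doses from 24 h on.

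Against untreated cells, 2 h of C1q came with higher Nfe2l2 and Hmox1 at all 3 doses, Txnrd1 at 1 and 10 µg/ml and Srxn1 and Gclc at 10 µg/ml. Slc7a11 and Gsr were called at no dose. Calls were made at an adjusted p under 0.05 (edgeR, quasi-likelihood F-test, Benjamini-Hochberg over all 14419 genes). At 1 µg/ml, 3 of the 9 genes were called higher and 1 lower, where 4.28% of all genes tested were called higher and 1.87% lower. At 10 µg/ml, 5 were higher and 1 lower (7.64% and 5.1% of all genes), and at 100 µg/ml 2 were higher and 0 lower (3.14% and 2.02%). At 100 µg/ml, 4 of the 9 genes had an unadjusted p under 0.05, and DESeq2 called 2. Marker sums of some other cell types were already lower at 2 h without overlap. The epithelial sums were 354 to 464 CPM, against 475 to 555 CPM in untreated cells. The macrophage sums were 218 to 266 CPM, against 273 to 298 CPM, and the endothelial 35.6 to 44.9 CPM, against 49.8 to 54.2 CPM. Mural and erythroid sums overlapped, the mural at 38.8 to 57.4 CPM at 2 h, against 49.0 to 56.9 CPM in untreated cells. Fibroblast markers overlapped, at 5161 to 6272 CPM at 2 h, against 5307 to 6030 CPM in untreated cells. The part of these cells in the 2 h differences was not tested.

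Nfe2l2 itself (chromosome 2, 75675513 to 75704663, GRCm38.p6) had 200.1, 208 and 211 CPM at 1 µg/ml, 221, 235 and 209.6 CPM at 10 µg/ml and 192, 175 and 159 CPM at 100 µg/ml. The untreated libraries had 112, 136 and 120.1 CPM. All 9 treated libraries lay above all 3 untreated ones. The log2 differences from untreated were 0.75 ± 0.09, 0.86 ± 0.09 and 0.52 ± 0.09 (standard error) in order of dose, or 1.68-, 1.81- and 1.43-fold, with adjusted p = 2.88e-08, 6.52e-10 and 0.000149.

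Hmox1 encodes heme oxygenase 1, which breaks down heme and is also under BACH1 control (chromosome 8, 75093618 to 75100593). It had 189.8, 157 and 155 CPM at 1 µg/ml, 175, 162 and 183 CPM at 10 µg/ml and 230.4, 202 and 155 CPM at 100 µg/ml, against 104, 114 and 93.7 CPM in untreated cells. Every treated library was above every untreated one, and the 100 µg/ml libraries were the most spread. The log2 differences were 0.69, 0.74 and 0.92 (each ± 0.12), or 1.62-, 1.67- and 1.90-fold, with adjusted p = 3.53e-05, 7.50e-06 and 1.56e-07.

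Among the genes of the thioredoxin arm, Txnrd1 encodes thioredoxin reductase 1 (chromosome 10, 82833951 to 82897724). It had 511, 443 and 467 CPM at 1 µg/ml, 547, 430.2 and 567 CPM at 10 µg/ml and 398, 439 and 354 CPM at 100 µg/ml, against 321, 332 and 350.4 CPM in untreated cells. The log2 rises of 0.50 ± 0.11 and 0.62 ± 0.11 at the lower doses were called (adjusted p = 0.00117 and 2.96e-05), and the 100 µg/ml value of 0.25 ± 0.11 was not (adjusted p = 0.204), although all 9 treated libraries lay above the untreated ones. Srxn1 encodes sulfiredoxin, which restores over-oxidised peroxiredoxins (chromosome 2, 152105524 to 152111376). It had 92.6, 80.6 and 91.7 CPM at 1 µg/ml, 91.7, 86.1 and 113 CPM at 10 µg/ml and 80.6, 95.5 and 73.4 CPM at 100 µg/ml, against 67.7, 66.8 and 74.9 CPM in untreated cells. Only the 10 µg/ml difference of 0.47 ± 0.11 was called (adjusted p = 0.00236), and it was lost without the third library of that group (0.34, adjusted p = 0.0549). At 1 µg/ml the 3 libraries also stood above the untreated ones, with 0.34 ± 0.11 and adjusted p = 0.0506.

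The genes of glutathione supply did not share a direction at 2 h. Gclc and Gclm encode the catalytic and modifier subunits of glutamate-cysteine ligase, the first enzyme of glutathione synthesis. Gclc (chromosome 9, 77754535 to 77794489) had 56.7, 50.5 and 59.3 CPM at 10 µg/ml, against 34.9, 32.1 and 28.1 CPM in untreated cells, a rise of 0.81 ± 0.16 in log2 (1.75-fold, adjusted p = 0.000319). At 100 µg/ml it had 41.9, 36.4 and 41.1 CPM, all above the untreated libraries, with 0.32 ± 0.17 and adjusted p = 0.332. At 1 µg/ml its libraries were spread, with 43.3, 25.1 and 58.1 CPM, and the difference of 0.43 ± 0.16 was not called (adjusted p = 0.117); without the second of them it was 0.68 with adjusted p = 0.00150. Gclm (chromosome 3, 122245487 to 122267215) went the other way at 1 µg/ml, with 120.2, 96.2 and 117 CPM against 152, 150.5 and 138 CPM in untreated cells. That fall by 0.40 ± 0.10 in log2 (adjusted p = 0.00948) was lost without the first untreated library or the second at 1 µg/ml (adjusted p = 0.0605 and 0.107). At 10 and 100 µg/ml the differences of -0.25 ± 0.10 and -0.03 ± 0.10 were not called.

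Slc7a11, the cystine transporter subunit xCT (chromosome 3, 50364936 to 50499087), and Gsr, glutathione reductase (chromosome 8, 33653238 to 33698162), were called at no dose at 2 h. Their log2 differences ran from -0.11 to 0.19 and from -0.04 to 0.09. Nqo1, NAD(P)H quinone dehydrogenase 1 (chromosome 8, 107388225 to 107403205), had 39.9, 41.2 and 55.7 CPM at 10 µg/ml, against 61.7, 64.2 and 52.8 CPM in untreated cells. The fall by 0.40 ± 0.12 (adjusted p = 0.0211) rested on overlapping groups and was lost in DESeq2 (adjusted p = 0.0985), in a fit of these 6 libraries alone, and without the first or second library of either group. At 1 and 100 µg/ml Nqo1 differed from untreated by 0.02 and -0.15, with 95% intervals of -0.21 to 0.25 and -0.39 to 0.09.

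**Figure D2:**
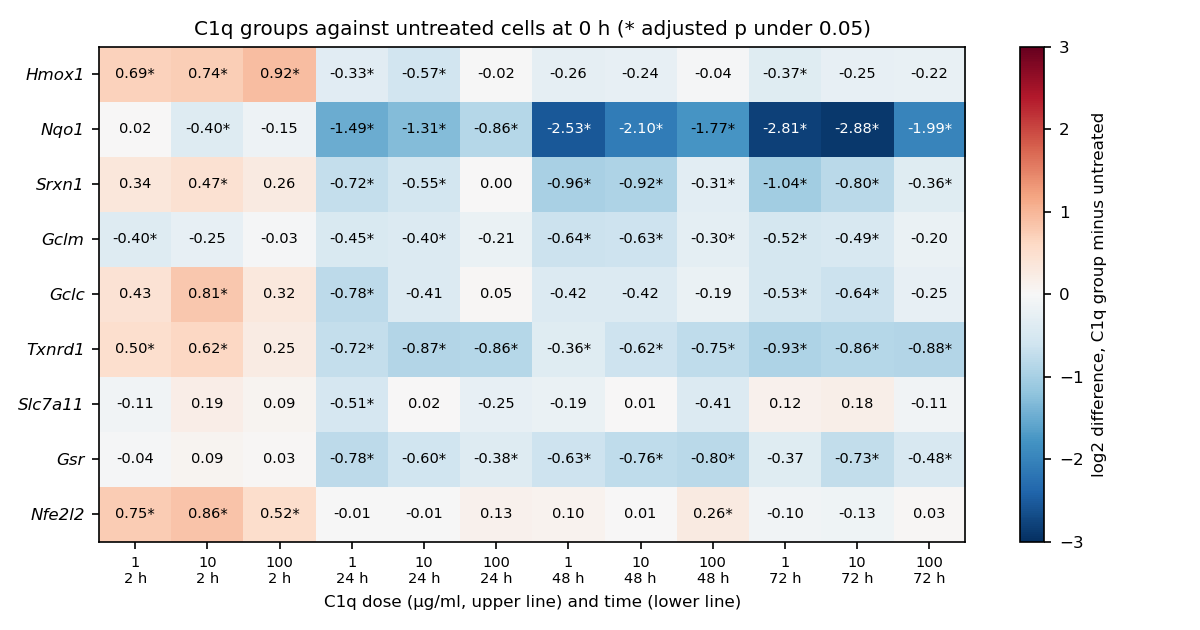
Log2 difference of each gene (rows) in each C1q group (columns, 12 groups by time and dose) from untreated cells at 0 h. Colour and number give the difference, red higher and blue lower in C1q groups, and stars mark an adjusted p under 0.05; the 2 h columns hold the rises of Hmox1 and Nfe2l2 and the later columns hold falls that reach -2.88 for Nqo1.

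From 24 h on, the picture against untreated cells was one of lower levels. Nqo1 and Txnrd1 were lower in 9 of 9 later groups, Srxn1 and Gsr in 8, Gclm in 7, Gclc and Hmox1 in 3 and Slc7a11 in 1. Nfe2l2 was called in 1 of the 9, and there it was higher. In order of dose, 8, 6 and 3 of the 9 genes were lower and 0 higher at 24 h, where 14.3%, 15.3% and 19.9% of all genes were lower and 10.9%, 12.5% and 16.8% higher. At 48 h 5 were lower at each dose and 0, 0 and 1 higher, where 17.1%, 17.5% and 20.9% of all genes were lower and 16%, 17% and 19.1% higher. The single higher gene does not exceed that share. At 72 h 6, 6 and 4 were lower and 0 higher, where 20.1%, 20.6% and 23.3% of all genes were lower and 18.1%, 19.3% and 22.5% higher. The median log2 difference of the 9 genes was -0.72, -0.55 and -0.21 at 24 h in order of dose and -0.52, -0.64 and -0.25 at 72 h. Over all genes tested the median lay between 0.01 and 0.05 in those 6 comparisons.

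Nqo1 fell furthest. At 24 h it had 22.6, 19.4 and 21.6 CPM at 1 µg/ml, 19.8, 26.9 and 25.0 CPM at 10 µg/ml and 32.1, 30.3 and 35.9 CPM at 100 µg/ml. At 48 h the values were 9.57, 11.3 and 9.84 CPM, then 13.9, 13.8 and 13.6 CPM, then 18.4, 18.1 and 15.4 CPM, in the same order of dose. At 72 h they were 9.38, 8.90 and 7.03 CPM, then 8.64, 8.18 and 7.18 CPM, then 14.7, 15.97 and 13.98 CPM. No library of any later group reached the lowest untreated value of 52.8 CPM, and at each dose the libraries at 48 and 72 h were all below those at 24 h. The log2 differences from untreated were -1.49, -1.31 and -0.86 at 24 h, -2.53, -2.10 and -1.77 at 48 h and -2.81, -2.88 and -1.99 at 72 h in order of dose, with standard errors of 0.12 to 0.16. The adjusted p was 2.55e-07 for 100 µg/ml at 24 h and lower in the other 8 groups. The summed epithelial markers were also lower, at 185 to 267 CPM at 24 h, 123 to 183 CPM at 48 h and 83.2 to 118 CPM at 72 h, against 475 to 555 CPM in untreated cells, and their part in the fall of Nqo1 was not tested.

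Srxn1 was lower than in untreated cells in every later group except 100 µg/ml at 24 h. Its log2 differences were -0.72 and -0.55 at 1 and 10 µg/ml at 24 h, -0.96 and -0.92 at 48 h and -1.04 and -0.80 at 72 h (each ± 0.12). At 100 µg/ml they were 0.00 ± 0.11 at 24 h (95% interval -0.22 to 0.23), -0.31 ± 0.12 at 48 h and -0.36 ± 0.12 at 72 h. The last pair were called at adjusted p = 0.0319 and 0.0104. The 48 h call was lost in 5 of 12 alternatives, among them no filter, DESeq2 and several single libraries left out. The 72 h call was lost only without the third library of that group (adjusted p = 0.0543). By 24 h Hmox1 overlapped the untreated libraries or lay below them. Its 24 h levels were 88.1, 79.5 and 78.8 CPM at 1 µg/ml, 76.4, 60.6 and 73.0 CPM at 10 µg/ml and 86.7, 105 and 115 CPM at 100 µg/ml. The difference at 10 µg/ml was -0.57 ± 0.13 (adjusted p = 0.000476), and that at 100 µg/ml was -0.02 with a 95% interval of -0.26 to 0.22. The call at 1 µg/ml and 24 h, -0.33, was lost in 8 of 12 alternatives. Among these were no filter, DESeq2, a fit of only the compared libraries and several single libraries left out. The call at 1 µg/ml and 72 h, -0.37, was lost only without the second untreated library or the third of that group. At 24 h the macrophage marker sums were 369 to 399.7 CPM at 1 µg/ml and 382 to 398 CPM at 100 µg/ml, above the untreated 273 to 298 CPM. At 10 µg/ml and 24 h they were 286 to 348 CPM and overlapped the untreated sums. All later sums were above the untreated ones, at 538 to 692 CPM at 48 h and 829 to 1334 CPM at 72 h. The part of these cells in the level of Hmox1 was not tested.

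Txnrd1 fell at every later dose and time, by 0.36 to 0.93 on the log2 scale, with overlapping levels at the 3 doses at 24 h, 199.9, 235 and 175 CPM at 1 µg/ml, 185, 186 and 178 CPM at 10 µg/ml and 177, 178 and 198 CPM at 100 µg/ml. The smallest of these falls, at 1 µg/ml and 48 h, was lost without the third library of that group (adjusted p = 0.0597). Gsr fell by 0.38 to 0.80 in 8 groups and had -0.37 ± 0.16 at 1 µg/ml and 72 h (adjusted p = 0.0562). The smallest of these falls, at 100 µg/ml and 24 h (adjusted p = 0.0461), was lost in 8 of 12 alternatives, among them no filter, DESeq2 and leaving out 5 different single libraries, with adjusted p up to 0.146, and the 100 µg/ml call at 72 h was lost without the third library of that group (adjusted p = 0.0636). Gclm was lower by 0.40 to 0.64 at 1 and 10 µg/ml at all later times, and by 0.30 ± 0.10 at 100 µg/ml and 48 h, a call lost without the first untreated library or the second of that group (adjusted p = 0.0537 and 0.0771). Gclc had called differences of -0.78 at 1 µg/ml and 24 h, and of -0.53 and -0.64 at 1 and 10 µg/ml and 72 h. Its 72 h call at 1 µg/ml was lost without the first untreated library or the second of that group. The values of Slc7a11 ran from -0.51 to 0.18, and its single call, at 1 µg/ml and 24 h (37.6, 46.5 and 78.8 CPM, against 79.8, 80.0 and 69.0 CPM in untreated cells, adjusted p = 0.0374), was lost without any 1 of 4 libraries. Nfe2l2 stayed within -0.13 to 0.13 of its untreated level in 8 later groups and was 0.26 ± 0.09 higher at 100 µg/ml and 48 h (adjusted p = 0.0230), a call lost without either of 2 untreated or 2 treated libraries.

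The comparison of 100 µg/ml with 1 and 10 µg/ml at equal time asks what the highest dose adds. From 24 h on, Srxn1 and Nqo1 were called higher at every time, Gclm at 48 and 72 h, and Hmox1 and Gclc at 24 h. Txnrd1, Slc7a11, Gsr and Nfe2l2 were called in none of the 3 later times. At 24 h 4 of the 9 genes were higher and 0 lower, where 5.74% of all genes tested were higher and 8.79% lower. At 48 h it was 3 and 0, with 5.46% and 8.43% of all genes, and at 72 h it was 3 and 0, with 6.6% and 8.3%. The median log2 difference of the 9 was 0.30, 0.21 and 0.15 at 24, 48 and 72 h, and that of all genes 0.03, -0.01 and 0.00.

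Srxn1 was higher at 100 µg/ml at all 3 later times. At 24 h it had 61.0, 79.3 and 69.7 CPM at 100 µg/ml, against 38.7, 45.5 and 43.2 CPM at 1 µg/ml and 46.5, 44.3 and 51.8 CPM at 10 µg/ml. At 48 h it had 56.2, 52.6 and 60.3 CPM at 100 µg/ml, against 35.0, 35.1 and 37.4 CPM at 1 µg/ml and 37.0, 37.4 and 36.3 CPM at 10 µg/ml. At 72 h it had 59.3, 53.8 and 50.3 CPM at 100 µg/ml, against 29.8, 35.6 and 35.98 CPM at 1 µg/ml and 39.6, 37.7 and 43.4 CPM at 10 µg/ml. The groups did not overlap at any of these times. The log2 differences were 0.64 ± 0.10, 0.63 ± 0.11 and 0.56 ± 0.11 (1.56-, 1.55- and 1.47-fold), with adjusted p = 4.51e-06, 5.22e-05 and 0.000173, and they held against 1 µg/ml alone and 10 µg/ml alone.

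For Nqo1 the 100 µg/ml libraries given above also lay over all libraries of the lower doses at each later time. The log2 difference was 0.54 ± 0.12 at 24 h, 0.54 ± 0.16 at 48 h and 0.86 ± 0.17 at 72 h (1.46-, 1.46- and 1.81-fold, adjusted p = 0.000894, 0.02495 and 0.000317). The 48 h call was lost against 10 µg/ml alone (0.33, adjusted p = 0.332), in DESeq2 (adjusted p = 0.0580) and without the first or second library at 100 µg/ml (adjusted p = 0.0927 and 0.123). It was also lost with no filter and among libraries of 1 column spelling, where only the third library at 1 µg/ml remains for that dose. Nqo1 had as few as 17 counts in a library, the fewest of the 9 genes.

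Gclc at 24 h had 27.7, 34.4 and 35.9 CPM at 100 µg/ml, against 17.9, 19.02 and 18.2 CPM at 1 µg/ml and 24.2, 23.5 and 23.9 CPM at 10 µg/ml. The 3 doses stood in order without overlap. The log2 difference of 0.65 ± 0.15 (adjusted p = 0.00194) was 0.83 against 1 µg/ml alone and 0.46 against 10 µg/ml alone, where it was not called (adjusted p = 0.0867). At 48 and 72 h it was 0.23 ± 0.16 and 0.34 ± 0.16 and was not called. Hmox1 at 24 h differed by 0.43 ± 0.10 with overlapping groups (adjusted p = 0.00282), which was lost against 1 µg/ml alone (0.32, adjusted p = 0.0852) and without the third library at 100 µg/ml (0.33, adjusted p = 0.0718).

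Gclm had 123, 115 and 121 CPM at 100 µg/ml and 48 h, against 91.2, 94.5 and 97.2 CPM at 1 µg/ml and 94.4, 97.1 and 93.0 CPM at 10 µg/ml. At 72 h it had 129.8, 123 and 130.0 CPM at 100 µg/ml, against 102, 115 and 89.7 CPM at 1 µg/ml and 108, 95.3 and 110.3 CPM at 10 µg/ml. The groups did not overlap, and the log2 differences were 0.34 ± 0.09 and 0.30 ± 0.09 (adjusted p = 0.00907 and 0.0163). The 72 h call was lost against 10 µg/ml alone and without any 1 of 3 libraries, with a highest adjusted p of 0.0759 over the alternatives run. The 48 h call was lost among libraries of 1 column spelling, where only the third library at 1 µg/ml remains for that dose. At 24 h the value was 0.22 ± 0.09 (adjusted p = 0.0812).

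The uncalled genes set bounds. At 24, 48 and 72 h the 95% intervals for Txnrd1 were -0.26 to 0.13, -0.46 to -0.06 and -0.19 to 0.21, and those for Gsr were 0.02 to 0.58, -0.43 to 0.21 and -0.22 to 0.36. For Slc7a11 they were -0.32 to 0.31, -0.65 to 0.02 and -0.57 to 0.06, and for Nfe2l2 -0.02 to 0.30, 0.04 to 0.37 and -0.02 to 0.31. Marker sums differed by dose as well, and those of fibroblasts did so in opposite directions. Fibroblast markers summed to 5397 to 6090 CPM at 100 µg/ml and 24 h, against 6790 to 8425 CPM at the lower doses, and to 7126 to 7465 CPM at 48 h, against 7466 to 8662 CPM. At 72 h they were higher, 8430 to 9186 CPM at 100 µg/ml, against 7384 to 7983 CPM at the lower doses. Epithelial markers overlapped at 24 and 72 h and were lower at 48 h, 123 to 139.7 CPM at 100 µg/ml, against 154 to 183 CPM at the lower doses. Endothelial markers were lower at 24 and 48 h, 28.9 to 32.1 and 30.8 to 39.4 CPM at 100 µg/ml, against 38.2 to 45.5 and 46.4 to 62.1 CPM at the lower doses, and 4 mural markers were lower at 24 h, 62.2 to 64.4 CPM against 80.9 to 110.5 CPM. Macrophage markers overlapped at all 3 times, with 829 to 1016 CPM at 100 µg/ml and 72 h, against 983 to 1334 CPM at the lower doses. The part of these cells in the dose differences was not tested.

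At 2 h the 100 µg/ml cells differed from the lower doses in 3 genes, and none of these calls was firm. Gclm was higher by 0.30 ± 0.09, and Txnrd1 and Nfe2l2 were lower by 0.31 ± 0.09 and 0.29 ± 0.08 on the log2 scale (adjusted p = 0.0399, 0.0402 and 0.0213). That is 1 gene higher and 2 lower of 9, where 1.24% of all genes were higher and 2.89% lower. The Nfe2l2 libraries at 100 µg/ml, 159 to 192 CPM, lay below all 6 of the lower doses, 200.1 to 235 CPM. None of the 3 calls held when only the 2 h libraries were fitted (adjusted p = 0.0777, 0.119 and 0.121), and each was lost without single libraries, the third at 100 µg/ml among them.

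**Figure D3:**
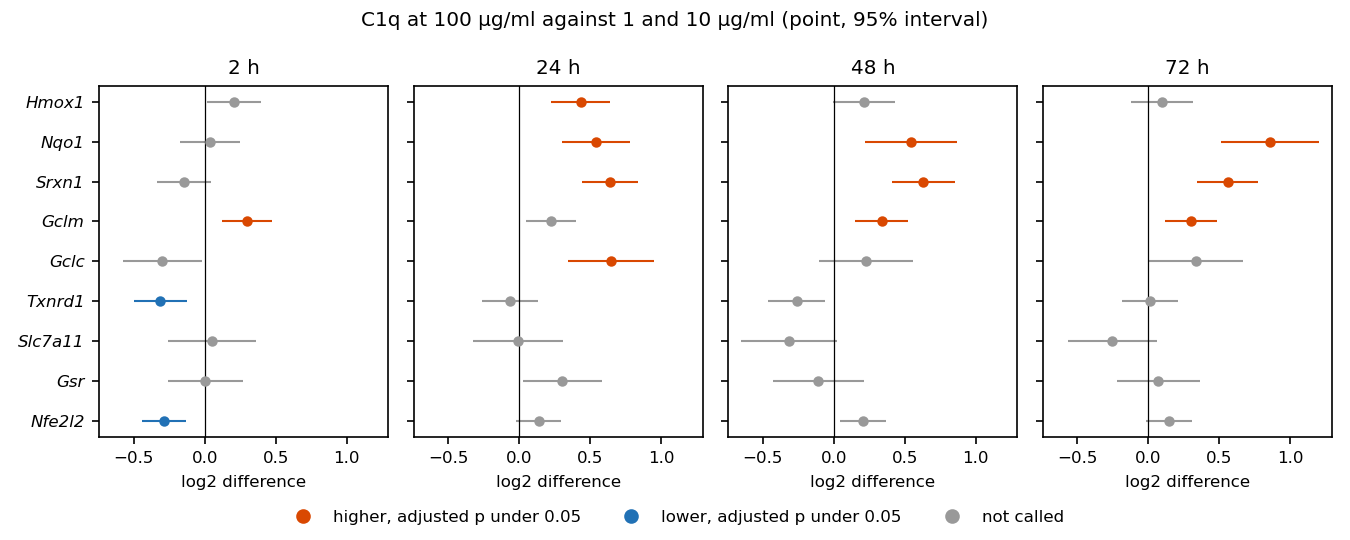
Log2 difference of each gene (rows) between 100 µg/ml and the mean of 1 and 10 µg/ml at 2, 24, 48 and 72 h (panels, x axis). Points are estimates and bars 95% intervals, with orange higher and blue lower at an adjusted p under 0.05; Srxn1 and Nqo1 lie right of 0 from 24 to 72 h and near or left of it at 2 h.

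Between 10 and 1 µg/ml none of the 9 genes was called by edgeR at any time. The 36 log2 differences ran from -0.42 to 0.53, their 95% intervals reached from -0.69 to 0.89, and the lowest adjusted p was 0.0876, for Nqo1 at 2 h. At 2, 24, 48 and 72 h, 2, 1, 2 and 1 of the 9 genes had an unadjusted p under 0.05 in edgeR, and DESeq2 called 0 at each time. Of all genes tested, 0.839%, 0.0485%, 0.208% and 0% were called at those times. Calls appeared on leaving out single libraries for Gclc at 2 h (0.67, adjusted p = 0.0107, without the third library at 1 µg/ml), Nqo1 at 2 h (-0.58, adjusted p = 0.0113, without the third at 10 µg/ml) and Slc7a11 at 24 h (0.85, adjusted p = 0.00421, without the third at 1 µg/ml).

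Averaged over the 3 doses, 8 of the 9 genes were lower at 24 than at 2 h, where 28.6% of all genes were lower and 29.3% higher. The largest of these falls in log2 were 1.27 ± 0.06 for Txnrd1, 1.09 ± 0.07 for Hmox1 and 1.04 ± 0.07 for Nqo1 (adjusted p = 4.74e-22, 1.65e-18 and 2.24e-16). Gclc fell by 0.90 ± 0.10, Srxn1 by 0.78 ± 0.06, Nfe2l2 by 0.67 ± 0.05, Gsr by 0.62 ± 0.09 and Slc7a11 by 0.30 ± 0.10. Gclm had -0.13 ± 0.06 and was not called (adjusted p = 0.0603). These 8 calls held in every alternative run. None of the 9 was called higher at 24 h.

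The later steps were called in 4 and then 3 of the 9 genes. From 24 to 48 h Nqo1 fell by another 0.92 ± 0.09, Srxn1 fell by 0.31 ± 0.07 and Txnrd1 rose by 0.24 ± 0.06 (adjusted p = 9.84e-11, 0.000926 and 0.00451). Gclm fell by 0.17 ± 0.06, a larger value than its uncalled step to 24 h, and this call was lost with no filter, in DESeq2 and without 7 different single libraries. That made 3 of 9 lower and 1 higher, where 12.1% of all genes were lower and 12.8% higher. The single higher gene is near that share. From 48 to 72 h Nqo1, Txnrd1 and Nfe2l2 fell by 0.42 ± 0.11, 0.31 ± 0.06 and 0.19 ± 0.05 (adjusted p = 0.0113, 0.000359 and 0.0105), 3 of 9 lower and 0 higher, where 8.27% of all genes were lower and 8.38% higher.

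An interaction test asked whether a gene's dose difference was the same at 2, 24, 48 and 72 h. It was called different for 4 of the 9 genes, where 10.6% of all genes were. For Srxn1 (adjusted p = 5.07e-05) the difference was -0.14 at 2 h and 0.64, 0.63 and 0.56 later. For Nfe2l2 (adjusted p = 0.00399) it was -0.29 at 2 h and 0.14, 0.21 and 0.15 later. For Gclc (adjusted p = 0.00713) it was -0.30 at 2 h and 0.65, 0.23 and 0.34 later, and for Nqo1 (adjusted p = 0.00827) 0.04 at 2 h and 0.54, 0.54 and 0.86 later. In each of the 4 the 2 h value was the lowest. The Nqo1 call was lost with no filter (adjusted p = 0.0669) and without the first library at 100 µg/ml and 2 h (adjusted p = 0.0515). Gclm, whose dose difference was 0.22 to 0.34 at all 4 times, had adjusted p = 0.911. For Hmox1 no change of the dose difference over time was called (adjusted p = 0.405), with 0.21, 0.43, 0.21 and 0.10 at 2, 24, 48 and 72 h.

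Across the 13 group means the genes shared much of their course, a description over group means that share the same time course and libraries. Pearson's r of log2 CPM was 0.92 for Srxn1 and Gclc, 0.91 for Hmox1 and Nfe2l2 and 0.90 for Nqo1 and Srxn1, and it was 0.31 for Gclm and Nfe2l2. The pairs with Slc7a11 ran from 0.02 with Nqo1 to 0.47 with Gsr, and of the pairs without it only Gclm with Nfe2l2 and Gclm with Txnrd1 (0.36) lay in that range. Over the same 13 means, and among 10262 other genes of at least moderate level, the closest in course to Nqo1 were Tlcd2 (r = 0.98), Gatad1 and Acot7 (both 0.97). Closest to Hmox1 were Myo9a (0.96), Lonrf3 and Btbd3 (both 0.95), to Srxn1 Ltbp2, Ehd2 (both 0.97) and Usp47 (0.96), and to Nfe2l2 Slc66a2, Stk40 and Sphk1 (each 0.97). Txnrd1 ran closest to Naa15 and Tmem41b (both 0.99) and Dnaja2 (0.98), Gclc to Map4k5 (0.96), Esyt2 and Ehd2 (both 0.94), and Gsr to Tubb2a, Tmx1 and Tex30 (each 0.94). The nearest to Gclm were Ints3 (0.94), Mtmr4 and Alg9 (both 0.92), and to Slc7a11 Eif4enif1 (0.84), Chtop and Nxf1 (both 0.80).

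The partners and regulators of NRF2 were set beside the 9 genes, as a list of 11 genes. At 2 h 5 of the 11 were higher than in untreated cells at each dose, where 4.28%, 7.64% and 3.14% of all genes were higher in order of dose. The small MAF genes Maff, Mafg and Mafk, which encode its DNA-binding partners, rose by 1.23, 0.72 and 0.99 at 1 µg/ml, by 1.56, 1.05 and 1.13 at 10 µg/ml and by 1.19, 0.93 and 1.07 at 100 µg/ml on the log2 scale. Bach1, the competing repressor, rose by 0.64, 0.91 and 0.53 in order of dose, and Sqstm1, an adaptor that can sequester KEAP1, by 0.38, 0.41 and 0.34. Keap1 was called lower at 1 µg/ml and not at the other doses, at 68.0 ± 8.7 CPM against 91.8 ± 9.8 CPM in untreated cells (SD, n = 3 each, -0.42 in log2, adjusted p = 0.0161). The adjusted p of the rises was at most 0.011.

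Between 100 µg/ml and the lower doses the regulators were called in both directions at later times. Nfe2l1, the related factor NRF1, was higher by 0.26 ± 0.07, 0.39 ± 0.08 and 0.37 ± 0.07 at 24, 48 and 72 h, with 389 ± 4.1 CPM at 100 µg/ml and 72 h, against 301 ± 37 CPM at 1 µg/ml and 301 ± 15 CPM at 10 µg/ml (SD, n = 3 each). Maff was lower by 0.86 ± 0.11 at 48 h and 0.87 ± 0.13 at 72 h, and Mafk and Mafg were higher by 0.47 ± 0.13 and 0.42 ± 0.13 at 24 h. Of the 11, 3, 1 and 1 were higher and 1, 1 and 2 lower at 24, 48 and 72 h, where 5.74%, 5.46% and 6.6% of all genes were higher and 8.79%, 8.43% and 8.3% lower. The counts of 1 lie near those shares.

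Other detoxification genes described as NRF2 targets in mouse differed by dose in part. Of 24, 21 held enough counts to be tested, Gsta1, Gsta2 and Aldh3a1 being the ones left out. At 24, 48 and 72 h, 4, 4 and 7 of the 21 were higher and 5, 1 and 0 lower at 100 µg/ml than at the lower doses, beside the same 5.74%, 5.46% and 6.6% of all genes higher and 8.79%, 8.43% and 8.3% lower. The single lower gene at 48 h is near that share. Gstm1, a glutathione transferase, was higher by 0.65 ± 0.08, 0.56 ± 0.08 and 0.71 ± 0.08 at those times, with 294 ± 17 CPM at 100 µg/ml and 72 h, against 173 ± 19 CPM at 1 µg/ml and 187 ± 7.3 CPM at 10 µg/ml. Ephx1, microsomal epoxide hydrolase, was higher by 0.41, 0.45 and 0.49 (each ± 0.08), and Gsta3 by 0.49, 0.57 and 0.45. At 72 h Aox1, an aldehyde oxidase, and Ces2g, a carboxylesterase, were both higher by 0.70 (± 0.22 and ± 0.14). Mgst1, a membrane-bound glutathione transferase, went the other way, by -0.38 at 24 h and -0.31 at 48 h.

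The 17 other genes of glutathione, thioredoxin and peroxide metabolism had 2, 3 and 3 members higher and 2 lower at each of the 3 later times. Of all genes, 5.74%, 5.46% and 6.6% were higher and 8.79%, 8.43% and 8.3% lower, so the counts of lower members are near the share of all genes. At 24 h Gss, glutathione synthetase, was higher by 0.53 ± 0.17 and Chac1, which degrades glutathione, was lower by 0.74 ± 0.26. Gpx1, a glutathione peroxidase, was higher by 0.43 ± 0.08 at 48 h. At 72 h Cat, catalase, was higher by 0.45 ± 0.11, and Prdx1 and Txn1, peroxiredoxin 1 and thioredoxin, were lower by 0.32 ± 0.09 and 0.42 ± 0.10. The products of Nqo1, Txnrd1 and Gsr use NADPH, and 6 enzymes around its supply formed another list. G6pdx, Pgd, Me1 and Idh1 encode enzymes that form it, and Tkt and Taldo1 other enzymes of the pentose phosphate pathway. These genes were lower than in untreated cells at all 3 doses at 24, 48 and 72 h, 6 of 6 each time. Of all genes, 14.3% to 23.3% were lower there. At 100 µg/ml and 72 h these falls ran from 0.42 ± 0.11 for Me1 to 1.18 ± 0.10 for Taldo1 in log2. Only Pgd among them, 6-phosphogluconate dehydrogenase, was called between 100 µg/ml and the lower doses, higher by 0.38 ± 0.08 at 24 h and 0.23 ± 0.08 at 72 h.

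Genes of neighbouring pathways that share members with the NRF2 response reached larger log2 values. Slc7a11 is also a target of ATF4 in the integrated stress response, and Hmox1 is also induced by heme and metals. Of 14 tested genes of the ATF4 response, 2, 5 and 9 were higher and 5, 0 and 0 lower at 100 µg/ml than at the lower doses at 24, 48 and 72 h, where 5.74%, 5.46% and 6.6% of all genes were higher and 8.79%, 8.43% and 8.3% lower. At 48 and 72 h Ddit3, the factor CHOP, was higher by 0.96 ± 0.09 and 0.91 ± 0.09, and Trib3, a pseudokinase it induces, by 1.39 ± 0.16 and 1.16 ± 0.17. Sesn2 was higher at all 3 times, by 0.66 ± 0.16, 0.78 ± 0.18 and 0.66 ± 0.17. Asns, Phgdh and Shmt2, enzymes of asparagine, serine and glycine synthesis, were lower at 24 h, by 0.39 ± 0.10, 0.63 ± 0.09 and 0.59 ± 0.10, and higher at 72 h, by 0.51 ± 0.11, 0.40 ± 0.10 and 0.38 ± 0.12. Slc7a11 was called at none of these times.

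The metal-responsive genes had the largest values of the lists at 48 and 72 h. The metallothionein genes Mt1 and Mt2 and the zinc exporter gene Slc30a1 are targets of the zinc-sensing factor MTF1. Mt2 had 251 ± 17 CPM at 100 µg/ml and 72 h, against 77.4 ± 9.1 CPM at 1 µg/ml and 81.1 ± 17 CPM at 10 µg/ml (SD, n = 3 each). Its log2 difference was 0.35 ± 0.12, 1.33 ± 0.11 and 1.66 ± 0.11 at 24, 48 and 72 h, and that of Slc30a1 was 0.84 ± 0.21, 1.78 ± 0.21 and 1.89 ± 0.25. Mt1 was 1.25 ± 0.11 higher at 48 h and 1.60 ± 0.11 at 72 h. Slc48a1, the heme transporter HRG1, was higher by 0.69 ± 0.07, 0.53 ± 0.08 and 0.62 ± 0.07. Hmox2, the constitutive heme oxygenase, and Tfrc, the transferrin receptor, were lower at 72 h, by 0.53 ± 0.12 and 0.81 ± 0.22, so that 4 of the 10 genes of this list were higher and 2 lower there, where 6.6% of all genes were higher and 8.3% lower. At 2 h the metallothioneins were lower at 100 µg/ml than at the lower doses, by 0.68 ± 0.11 for Mt2 and 0.39 ± 0.11 for Mt1. Against untreated cells, Mt1 and Mt2 were lower at 1 and 10 µg/ml at 72 h, with log2 differences of -1.43 and -1.36 for Mt2 and -1.88 and -1.80 for Mt1, and were not called at 100 µg/ml (0.26 for Mt2 and -0.24 for Mt1). Gstm1, Gsta3, Mt1 and Mt2 belong to families of close copies, and the counting of reads that match several copies is not given in the sources used here, so their values are uncertain. These lists, like the 9 genes, were drawn up with earlier results of these data known, so their counts are descriptions.

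**Figure D4:**
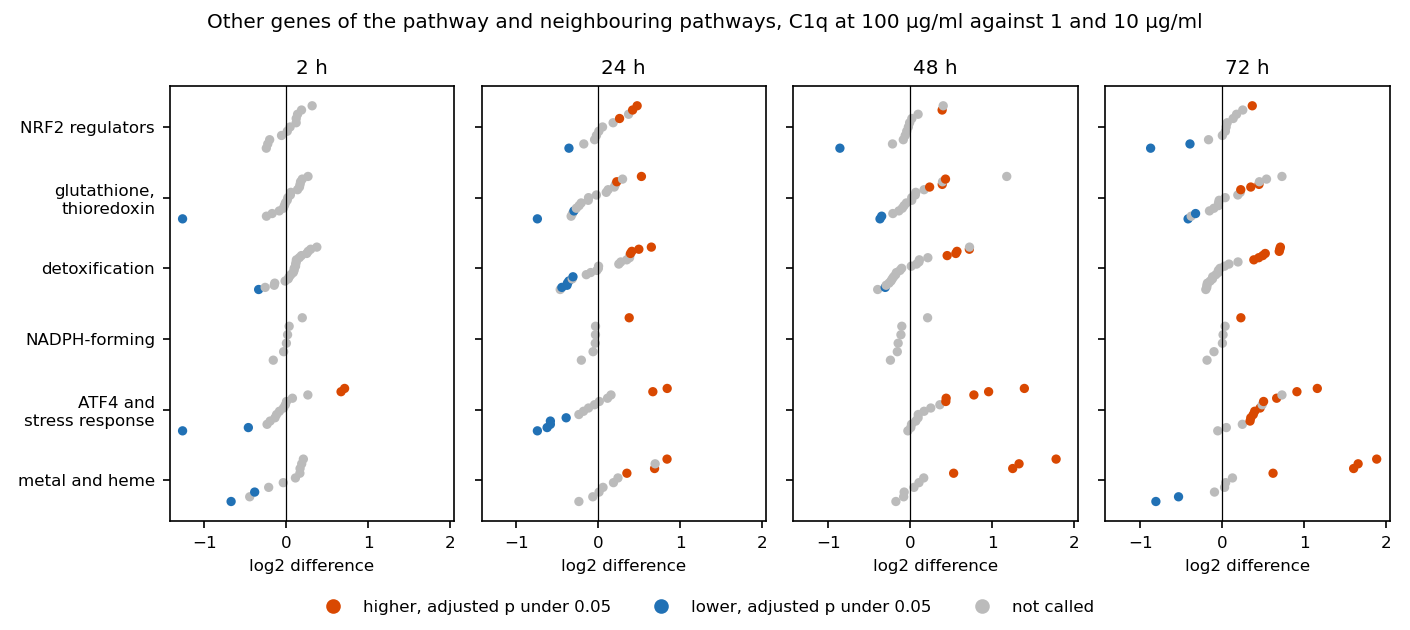
Log2 difference between 100 µg/ml and the mean of 1 and 10 µg/ml (x axis) at 2, 24, 48 and 72 h (panels) for the tested genes of 6 lists (rows). Each point is a gene, stacked by value within its list, orange higher and blue lower at an adjusted p under 0.05. The metal and heme row reaches 1.89 at 72 h. The NADPH-forming row also holds Tkt and Taldo1, which do not form NADPH. It lies within -0.24 to 0.38 over the 4 times, with Pgd called at 24 and 72 h.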

How the data were processed

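Cultured mouse lung fibroblasts were profiled in 39 libraries, 3 in each of 13 groups by C1q dose and time. The deposited values are whole-number counts per gene name, not normalized, of 30012 names. Reads had been trimmed with cutadapt 2.1.0 and aligned with Bowtie2 2.4.2 to GRCm38; both tools and the build come from the submitters' processing notes. No source used here names the program that counted reads, its gene models, or how it treated strand, molecular identifiers and reads that map to several places. Library totals were 1806106 to 3012518 counts, which sets the precision of low genes.

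Columns were matched to samples by name. In 9 of them the spelling differs from the label, and these were matched by the serial number they share with it; 0 columns were left unmatched. Pairs of libraries within groups differed by a chi-square of 1.31 to 8.48 per degree of freedom (39 pairs, genes with at least 20 counts). No pair was therefore counted as a duplicate. The highest values, 8.02 and 8.48, were those of library 3 at 1 µg/ml and 24 h against libraries 1 and 2. The next was 4.34, at 1 µg/ml and 72 h. Library 3 of that 24 h group enters the dose comparisons at 24 h. Its column is spelled differently from those of libraries 1 and 2. The spelling also changes at library 3 of 1 µg/ml and 48 h, where its pairs gave 1.89 and 2.07. The cause was not tested.

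The test was edgeR 4.0.16 (R 4.3.3): filterByExpr kept 14419 genes with 99.4% of counts, TMM factors were fitted over all 39 libraries, and 1 quasi-likelihood model with a term per group gave 24 comparisons, each adjusted by Benjamini-Hochberg over all genes at 0.05. Two-sided p-values, standard errors and 95% intervals come from that model. CPM are counts scaled to TMM library sizes. DESeq2 1.42.0, RLE scaling, no filter, a robust fit, fits of only the compared libraries, removal of the most abundant row (LOC118568312), a single lower dose and each library left out in turn were run as alternatives. The statistical steps were tested on simulated data. Course likeness was Pearson's r over 13 group means of log2 CPM (prior count 2), among genes with a mean log2 CPM of at least 3, and the 3 highest were named. All 9 genes are named, and other genes are examples from their lists, called in the comparison described and mostly the largest differences; some were chosen after their values were seen. The genes and lists were chosen with earlier results of these data known. Gene positions and promoters are RefSeq's on GRCm38.p6, and 28849 names matched. Figures used Python 3.11.15 and matplotlib 3.10.9.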

Additional observations from a re-analysis of the deposited data

Results flagged for a closer look

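Among the 9 genes, 4 had a difference between 100 µg/ml and the lower doses that changed over the times, by the interaction test of edgeR adjusted over all genes. For Srxn1 the adjusted p was 5.07e-05, with log2 differences of -0.14, 0.64, 0.63 and 0.56 at 2, 24, 48 and 72 h. For Nfe2l2 it was 0.00399, with -0.29, 0.14, 0.21 and 0.15, and here the 2 h value was called lower while the later values were not called. For Gclc it was 0.00713, with -0.30, 0.65, 0.23 and 0.34, of which the 24 h value was called. For Nqo1 it was 0.00827, with 0.04, 0.54, 0.54 and 0.86, and this one was lost with no filter (adjusted p = 0.0669) and without the first library at 100 µg/ml and 2 h. The 2 h libraries at 100 µg/ml enter each of these tests, and 1523 of the 14419 genes were called in the same test.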

How the results depend on the processing

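Of 216 values of the 9 genes over 24 comparisons, 93 were called, and 69 of these stayed called in every alternative run. The other 24 were lost in at least 1 alternative, 22 of them on leaving out a library, while 23 of the 123 uncalled values were gained in some alternative. No called log2 difference changed sign in any alternative. Uncalled values were not checked for a change of sign, and the interaction test has no direction. Among the 9 genes, the 3 calls of 100 against 1 and 10 µg/ml at 2 h became 1 with no filter, 0 with only the compared libraries and 1 against 1 µg/ml alone, and 0 to 3 without single libraries. Between 10 and 1 µg/ml, 0 calls became 1 at 24 h with no filter, and 0 to 1 at 2 h and at 24 h without single libraries. Without single libraries the 6 calls at 100 µg/ml and 48 h against untreated cells were 3 to 6, and the 4 at 72 h were 2 to 4. In libraries whose columns share 1 spelling, an alternative chosen after seeing the data, the 3 calls of 100 against 1 and 10 µg/ml at 48 h became 1, and the genes called at 24 h were 1122, against 2095. That alternative leaves out the first and second libraries at 1 µg/ml at the time compared. Only the third then stands for that dose, and all libraries left at that time share 1 spelling. With all libraries, spelling partly follows dose at 24 and 48 h, because only the first and second libraries at 1 µg/ml are spelled otherwise. Calls lost through spelling and calls lost through fewer libraries cannot be told apart.

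Counts over all genes moved by more than 1.5 times as follows. Between 10 and 1 µg/ml, 7 genes at 24 h became 81 with no filter, 2 in the robust fit and 1 with only the compared libraries. At 48 h 30 became 78, 1 and 0 in the same settings and 16 in DESeq2, at 72 h 0 became 7 with no filter, and at 2 h 121 became 50 with only the compared libraries. That setting also gave 385 for 100 against 1 and 10 µg/ml at 2 h, in place of 596. The cause was not tested. Without single libraries the ranges were 567 to 724 (887 with all) for 1 µg/ml and 466 to 558 (744) for 100 µg/ml against untreated cells at 2 h. For 10 against 1 µg/ml they were 45 to 177 (121) at 2 h, 0 to 168 (7) at 24 h and 1 to 73 (30) at 48 h. For 100 against 1 and 10 µg/ml they were 323 to 595 (596), 1294 to 2536 (2095), 1217 to 1910 (2002) and 1405 to 2056 (2149) at 2, 24, 48 and 72 h. No paired analysis was possible because the labels give no replicate numbers. The other gene lists were computed in the main settings only. Depth limits the lower genes, Nqo1 above all.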
